A study of Homo sapiens with 6 samples.

Results

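The genes described here are 10 genes of the NRF2 pathway and of iron storage, chosen by name from the 58735 genes of the deposited table: NFE2L2, KEAP1, GCLC, GCLM, NQO1, HMOX1, TXNRD1, SRXN1, FTL and FTH1. All 10 had a row, and all 10 were among the 16116 genes with enough reads to be tested. RNA was sequenced from cells labelled MG63, a human osteosarcoma line, transfected with siRNA against FUBP1 (siFUBP1, 3 samples) or with a control (siMock, 3 samples). FUBP1 encodes a single-stranded DNA and RNA binding protein known as a regulator of MYC. No drug treatment is given in the labels for either group, and the labels do not say which siRNA was sequenced or whether the samples of a group were separate cultures. The p-values therefore measure the spread between these 6 samples, which may be technical.

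NRF2, the protein of NFE2L2, is the transcription factor through which cells answer oxidants and electrophiles. KEAP1 holds NRF2 in the cytoplasm and passes it to a CUL3 ubiquitin ligase, so that it is degraded, and reactive compounds that modify KEAP1 let NRF2 escape to the nucleus. There NRF2 pairs with small MAF proteins on the antioxidant response element (ARE) of genes for glutathione synthesis, quinone reduction, haem breakdown, thioredoxin recycling and ferritin. Ferritin is a hollow shell of heavy (FTH1) and light (FTL) chains that stores iron, and translation of both chains is also held down by iron regulatory proteins on the iron-responsive element (IRE), a hairpin in the 5′ end of the mRNA. These controls act to a large part on proteins, whereas the values below are mRNA levels.

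The element through which the ferritins are held is shown first, since it is the sequence that the pair shares. Each stretch was read from GENCODE 29 transcripts (GRCh38), 5′ to 3′ along the gene's strand, with the 6 loop bases in capitals. Both stretches lie in exon 1, in the 5′UTR, FTL at chr19:48965335-48965363 and FTH1 at chr11:61967574-61967602.
FTL: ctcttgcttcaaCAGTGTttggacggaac
FTH1: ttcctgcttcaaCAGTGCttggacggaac
The pattern searched was an unpaired C, 5 bases that pair with 5 bases after the loop, and a CAGTGN loop between them. It occurred in 21 of 18725 5′UTRs (0.112%), and no other of the 10 genes held it in its 5′UTR.

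The ARE was searched as TGACNNNGC or TGAGNNNGC, on both strands, in the RefSeq promoter windows (GRCh38.p14, 250 bases before to 50 bases after a start). Windows were found for 8 of the 10 genes, with 11 windows in all. HMOX1 and FTH1 had no entry. A match was found in a window of NFE2L2, KEAP1, GCLM, NQO1 and TXNRD1, and none in those of GCLC, SRXN1 and FTL. By comparison, 29.1% of all 35116 promoter windows held TGACNNNGC or TGAGNNNGC, so a match is a common event and describes the window only. A match for each gene is shown along the gene's strand, with the matched bases in capitals. Where the match is on the opposite strand, they read as the reverse complement of the searched letters. The stretches lie at chr2:177264129-177264157 (NFE2L2, reverse strand), chr19:10502784-10502812 (KEAP1, reverse strand), chr1:93909446-93909474 (GCLM, reverse strand), chr16:69726661-69726689 (NQO1, reverse strand) and chr12:104215670-104215698 (TXNRD1, forward strand).
NFE2L2: gctggccgtcTGAGCCGGCgcggcccggc
KEAP1: gcccggctctGCTTAGTCAtggtgacctg
GCLM: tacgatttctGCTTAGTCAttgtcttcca
NQO1: tcctggagctGCAGCCTCAgcatcctccg
TXNRD1: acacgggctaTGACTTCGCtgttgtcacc

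Total counts were between 16309900 and 17484313 per sample, and the normalised count is given below as CPM, the count scaled to library size after TMM normalization. FUBP1, the targeted gene, had 3872, 4331 and 4282 counts in siMock and 749, 752 and 926 in siFUBP1, and its normalised count fell to 18.4% of siMock (log2 fold change -2.44, SE 0.0895, edgeR Benjamini-Hochberg adjusted p = 1.90e-17). The label MG63 was set against marker genes, and the osteoblast markers were largely missing. COL1A2 had no count in any of the 6 samples, ALPL had 0 to 1, SP7 0 to 2, TNFRSF11B 0 to 3 and SPARC 0 to 5. Of the 9 osteoblast markers 3 could be tested, and they did not move together: RUNX2 rose (log2 fold change 3.15, edgeR adjusted p = 4.53e-08, from 6 to 8 counts in siMock to 39 to 97), VIM rose by 0.38 on the log2 scale, and COL1A1 fell to 40.2% of siMock (log2 fold change -1.31, edgeR adjusted p = 1.83e-13). Counts of the epithelial keratin KRT8 ran from 28650 to 34970 in siMock and from 16128 to 18157 in siFUBP1, while EPCAM had 59 to 83. The summed level of the 4 epithelial markers was 2528 to 2901 CPM in siMock and 1367 to 1497 CPM in siFUBP1. Of these 4 markers, 2 fell and 2 did not pass the test (edgeR), so the sum does not speak for each of them. The summed level of the 9 osteoblast markers was 257 to 273 and 235 to 262 CPM. That of the 4 endothelial markers was 3.20 to 5.18 and 1.89 to 2.81 CPM, and that of the 7 blood markers stayed at or below 0.613 CPM. Mitochondrial genes took 5.60 to 6.59% of counts in siMock and 3.98 to 4.88% in siFUBP1. The part of these shifts in the values below was not tested, and in such bulk samples fewer cells of a type cannot be told apart from less RNA per cell.

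Among the 10 genes, 3 rose and 5 fell after FUBP1 knockdown, and 2 did not pass the test. NFE2L2 and the glutathione synthesis genes GCLC and GCLM were higher in siFUBP1, whereas the haem oxygenase HMOX1, the sulfiredoxin SRXN1, the ferritin heavy chain FTH1, KEAP1 and NQO1 were lower. Changes over 2-fold were seen for HMOX1 and SRXN1, both downward, and for no gene upward. The background was large: 30.1% of all tested genes passed upward and 30.1% downward (edgeR, Benjamini-Hochberg adjusted p below 0.05), while 8.16% rose and 9.13% fell over 2-fold. On CPM, the groups did not overlap for 3 genes higher and 6 genes lower in siFUBP1, against 32.2% and 31.7% of all tested genes. This count was not repeated on other scalings, and the separation of KEAP1 and FTL rests on the scaling (below). The 3 genes that rose are the share the background gives, and the 5 that fell are above it by 2 genes. The calls of KEAP1 and NQO1 were lost under some other settings (below), where the background moved as well. By total counts, 4121 of all tested genes fell, against 4851 in the main fit. The median log2 fold change of the 10 genes was -0.17, and that of all tested genes 0.00197. Together the 10 genes took 0.743, 0.741 and 0.697% of all counts in the siMock samples and 0.660, 0.653 and 0.638% in the siFUBP1 samples.

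**Figure D1:**
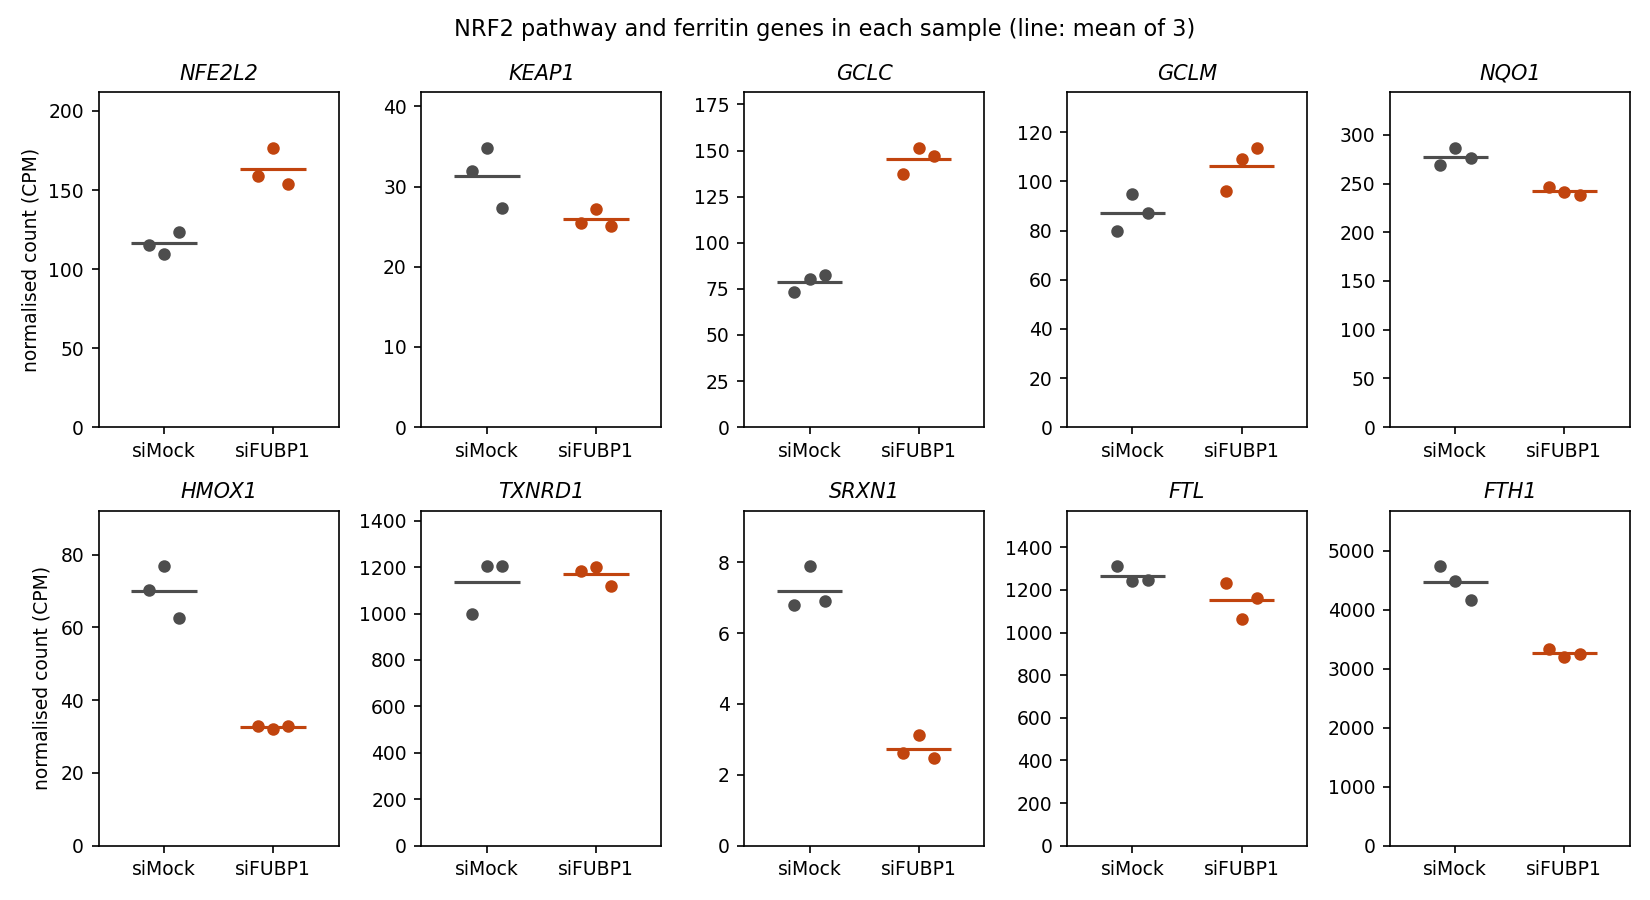
Normalised count (CPM, linear axes from 0) of each of the 10 genes in the 3 siMock and 3 siFUBP1 samples, with a point for each sample and a line at the group mean. The groups stay apart for 9 genes and overlap for TXNRD1; FTL is apart but did not pass the test.

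Levels between genes were compared per length, on the authors' FPKM. The length joins the exons of all transcripts of a gene and can exceed that of the mRNA present. The order of genes with close levels is therefore uncertain. In siMock, FTH1 stood highest at 2173 ± 143 FPKM (SD, n = 3), followed by FTL at 1425 ± 43.7. TXNRD1 followed at 167 ± 17.4, NQO1 at 84.2 ± 2.86, HMOX1 at 28.7 ± 2.97 and NFE2L2 at 19.2 ± 1.09 FPKM. GCLM stood at 15.9 ± 1.38, GCLC at 8.98 ± 0.529, KEAP1 at 8.24 ± 1.02 and SRXN1 at 2.64 ± 0.224. The place of SRXN1 in this order is uncertain, since most of its length is shared with another gene (below). The transcripts of the iron store thus made up most of this set, and the regulators NFE2L2 and KEAP1 were among the low genes. The neighbours GCLC and KEAP1 did not differ beyond their spread in siMock, since GCLC had 8.38 to 9.38 and KEAP1 7.15 to 9.18 FPKM. After knockdown the order changed in the middle: HMOX1 went from below NQO1 to 13.5 ± 0.185 FPKM, under NFE2L2 at 27.1 ± 2.07, GCLM at 19.5 ± 1.66 and GCLC at 16.7 ± 0.884. In siFUBP1, GCLC (15.7 to 17.5 FPKM) and GCLM (17.6 to 20.8 FPKM) lay side by side.

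The regulators moved in opposite directions. NFE2L2 (ENSG00000116044, chr2:177227595-177392697, reverse strand), which encodes NRF2, had 115, 110 and 123 CPM in siMock and 159, 177 and 154 CPM in siFUBP1. Every siFUBP1 sample was above every siMock sample, and the mean rose from 116 ± 6.87 to 163 ± 11.9 CPM (SD, n = 3; log2 fold change 0.49, SE 0.0792, edgeR Benjamini-Hochberg adjusted p = 6.93e-06). Of its exonic bases 17.6% are shared with AC019080.1 on the same strand, so that reads there could be assigned to either gene. KEAP1 (ENSG00000079999, chr19:10486120-10503741, reverse strand), the adaptor through which NRF2 is degraded, had 31.9, 34.8 and 27.3 CPM in siMock and 25.5, 27.2 and 25.1 CPM in siFUBP1. On CPM, the lowest siMock sample lay just above the highest siFUBP1 sample. On FPKM the groups overlapped, with 7.15 in siMock 3 and 7.20 in siFUBP1 2. The mean fell from 31.3 ± 3.81 to 25.9 ± 1.10 CPM (log2 fold change -0.28, SE 0.101, edgeR adjusted p = 0.0210). The KEAP1 call was lost under 8 of 16 alternatives, among them DESeq2 (adjusted p = 0.0695), each fit without siMock 2, siFUBP1 1 or siFUBP1 3, and a correction for GC content and length, under which the log2 fold change was -0.08.

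Within each sample the ratio of KEAP1 to NFE2L2 (counts per kilobase) needs no scaling between samples. It was 0.440, 0.505 and 0.351 in siMock and 0.255, 0.244 and 0.259 in siFUBP1. All siFUBP1 ratios were below all siMock ratios, with means of 0.432 ± 0.0769 and 0.253 ± 0.00751 and a log2 difference of -0.76 (two-sided exact permutation test, p = 0.1, the smallest that 3 against 3 samples allow).

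Glutamate-cysteine ligase makes the first and limiting step of glutathione synthesis, and its 2 subunits rose by different amounts. GCLC (ENSG00000001084, chr6:53497341-53616970, reverse strand), the catalytic subunit, had 73.3, 80.1 and 82.3 CPM in siMock and 137, 151 and 147 CPM in siFUBP1. This was the largest rise among the 10 genes, from 78.6 ± 4.66 to 145 ± 7.34 CPM (log2 fold change 0.89, SE 0.0786, edgeR adjusted p = 3.41e-10), or 1.85-fold. GCLM (ENSG00000023909, chr1:93885205-93909456, reverse strand), the modifier subunit, had 79.9, 94.7 and 87.2 CPM in siMock and 96.3, 109 and 114 CPM in siFUBP1. Its groups came within 2 CPM of each other, and its mean rose from 87.3 ± 7.42 to 106 ± 8.98 CPM (log2 fold change 0.28, SE 0.0842, edgeR adjusted p = 0.00514). GCLM, which has the lowest GC content of the 10 genes at 37.3%, lost its call under the correction for GC content and length, where the log2 fold change was 0.14 (edgeR adjusted p = 0.0775).

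The ratio of GCLM to GCLC (counts per kilobase) was 1.74, 1.89 and 1.69 in siMock and 1.12, 1.15 and 1.23 in siFUBP1. Per kilobase, the modifier transcript thus went from well above the catalytic transcript to slightly above it. The lengths used join the exons of all transcripts of a gene, so this level is uncertain. Without the lengths, GCLM had more counts than GCLC in each siMock sample and fewer in each siFUBP1 sample. The difference between the groups does not use the length. The means were 1.77 ± 0.102 and 1.17 ± 0.0590, a log2 difference of -0.60 (two-sided exact permutation test, p = 0.1, again the smallest possible).

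NQO1 and HMOX1, the classical readouts of NRF2, were both lower in siFUBP1. NQO1 (ENSG00000181019, chr16:69706996-69726951, reverse strand) reduces quinones to hydroquinones. It had 269, 287 and 276 CPM in siMock and 247, 241 and 238 CPM in siFUBP1. The groups were apart but the step was small, from 277 ± 8.97 to 242 ± 4.37 CPM (log2 fold change -0.20, SE 0.0740, edgeR adjusted p = 0.0239). NQO1 lost its call under 7 of 16 alternatives, including each fit without siMock 2, siFUBP1 1, siFUBP1 2 or siFUBP1 3 and the scaling by total counts (log2 fold change -0.10, edgeR adjusted p = 0.243). HMOX1 (ENSG00000100292, chr22:35380361-35394214, forward strand) breaks haem down to biliverdin, carbon monoxide and iron. It had 70.2, 76.8 and 62.7 CPM in siMock and 32.9, 31.9 and 32.9 CPM in siFUBP1. The siFUBP1 samples were nearly alike and all far below siMock, at 46.6% of its level (69.9 ± 7.05 to 32.6 ± 0.553 CPM, log2 fold change -1.10, SE 0.0904, edgeR adjusted p = 7.70e-11). The HMOX1 call and its direction held under all 16 alternatives, with log2 fold changes from -1.18 to -1.01.

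The thiol redox genes differed as well. TXNRD1 (ENSG00000198431, chr12:104215779-104350305, forward strand), the cytosolic reductase of thioredoxin, had 998, 1203 and 1203 CPM in siMock and 1184, 1202 and 1119 CPM in siFUBP1. The groups overlapped, with siMock 1 as the lowest sample. The means were 1135 ± 118 and 1168 ± 43.9 CPM, and the log2 fold change was 0.0422 with a 95% interval from -0.14 to 0.22 (edgeR adjusted p = 0.695). Without siMock 1 its sign turned, to -0.0487.

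SRXN1 (ENSG00000271303, chr20:646615-653370, reverse strand), which restores overoxidised peroxiredoxins, had the fewest counts of the 10 genes and the lowest log2 fold change, except on log2(FPKM + 1), where it was -0.86. Its counts were 111, 134 and 108 in siMock and 44, 54 and 43 in siFUBP1, that is 6.80, 7.89 and 6.92 against 2.61, 3.11 and 2.46 CPM. Every siFUBP1 sample was below every siMock sample, at 37.9% of the siMock level (7.20 ± 0.595 to 2.73 ± 0.342 CPM, log2 fold change -1.40, SE 0.189, edgeR adjusted p = 4.86e-07). Of its exonic bases 85.0% are shared with AL121758.1 on the same strand, which had 0 to 2 counts per sample, so the SRXN1 count could rest on the unshared bases and its FPKM is uncertain. Its 3′UTR holds 1 match of 8 bases to the seed of an siRNA that the study lists against FUBP1 (RNAi#2), as do 2.22% of 18942 3′UTRs. The other 9 genes hold no such match of 8 bases to the listed siRNAs. Of matches of 7 bases, NQO1 holds 1, TXNRD1 2 and SRXN1 a further 1, all to RNAi#1. The share of all 3′UTRs with a match of 7 bases was not counted. The part of these matches in the values was not tested. Among the genes named below, ME1 holds the same match of 8 bases to RNAi#2 and rose. Matches of 8 bases to the other listed siRNAs (in 4.07% and 10.9% of 3′UTRs) stand in TFRC, BTRC and MELTF, which fell, and in BACH1, SLC7A11 and SLC39A14, which rose. Among 10444 protein-coding genes with at least 100 counts on average, those whose log2 CPM followed SRXN1 most closely over the 6 samples were SLC29A3 (Pearson r 0.999, log2 fold change -1.01), ROGDI (0.999, -0.71) and AKR1B1 (0.999, -0.72). These correlations are a description over 2 groups of 3 samples.

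**Figure D2:**
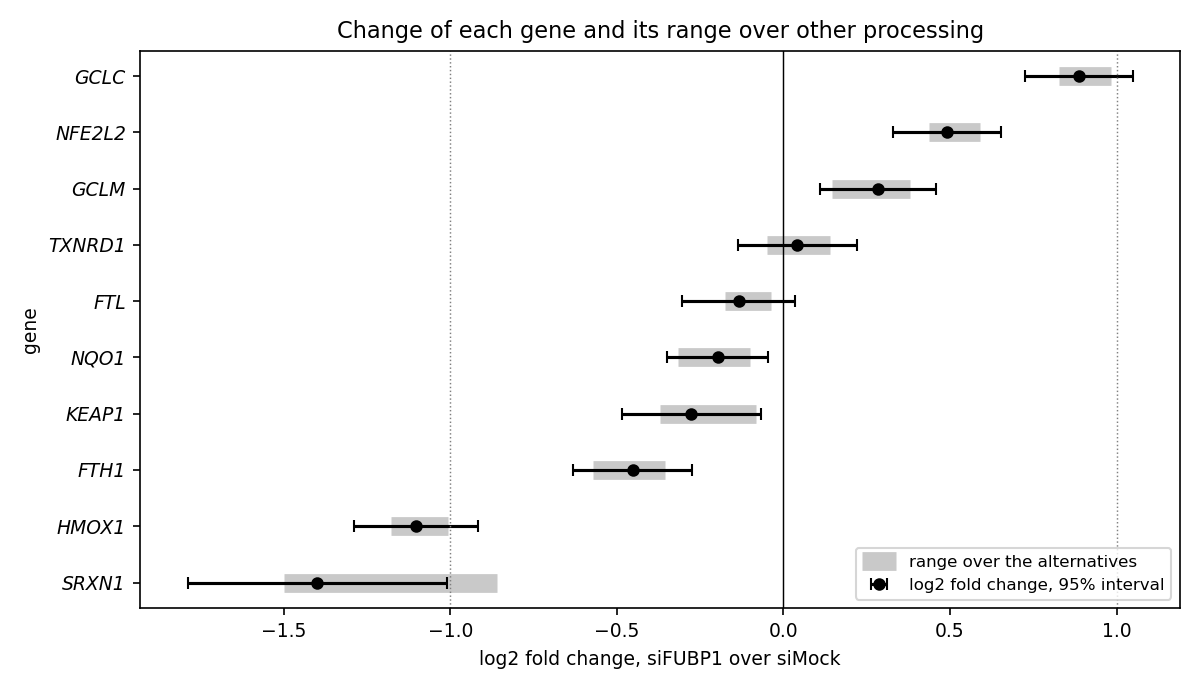
Log2 fold change of siFUBP1 over siMock for each of the 10 genes, as points with 95% intervals (edgeR), with grey bars for the range over the other processing settings and dotted lines at a 2-fold change. GCLC lies highest at 0.89 and SRXN1 lowest at -1.40, and the grey bar of TXNRD1 crosses 0.

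The chains of ferritin did not move alike. FTH1 (ENSG00000167996, chr11:61959718-61967660, reverse strand), the chain with the ferroxidase activity that loads iron, had 4735, 4492 and 4163 CPM in siMock and 3331, 3205 and 3248 CPM in siFUBP1. The lowest siMock sample was well above the highest siFUBP1 sample, and the mean fell from 4463 ± 287 to 3261 ± 64.1 CPM (log2 fold change -0.45, SE 0.0874, edgeR adjusted p = 7.42e-05), to 73.1% of siMock. FTL (ENSG00000087086, chr19:48965301-48966878, forward strand), the light chain that helps to lay down the iron core, had 1311, 1242 and 1244 CPM in siMock and 1232, 1062 and 1164 CPM in siFUBP1. On CPM, the FTL groups were apart by a narrow gap. Per total count they overlapped, since siMock 3 had 19431 of 16309900 counts and siFUBP1 1 had 20814 of 16502690. The means were 1266 ± 38.9 and 1153 ± 85.8 CPM, and the log2 fold change of -0.13, with a 95% interval from -0.31 to 0.04, did not pass the test (edgeR adjusted p = 0.165) in any of 17 alternatives.

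The ratio of FTL to FTH1 (counts per kilobase) was 0.640, 0.639 and 0.691 in siMock and 0.855, 0.766 and 0.829 in siFUBP1. All siFUBP1 samples had the higher share of light chain, with means of 0.657 ± 0.0298 and 0.817 ± 0.0458 and a log2 difference of 0.31 (two-sided exact permutation test, p = 0.1, the smallest possible). Reads of the ferritin genes can also fall on their processed pseudogenes. The 25 rows named FTH1P with a number held 1.18 to 1.91% as many counts as FTH1, and the 16 rows named FTLP at most 0.125% as many as FTL. Of the exonic bases of FTH1, 62.4% are shared with BEST1 on the opposite strand, whose own counts lay between 47 and 55 in siMock and between 153 and 305 in siFUBP1. Whether the authors' counts used the strand is not given in the sources used here. If reads on the shared bases were dropped, the length behind FTH1 would be shorter and the level of the ratio and the FPKM of FTH1 would be off by the same length factor in every sample, so the level is uncertain, while the difference between the groups does not use the length.

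**Figure D3:**
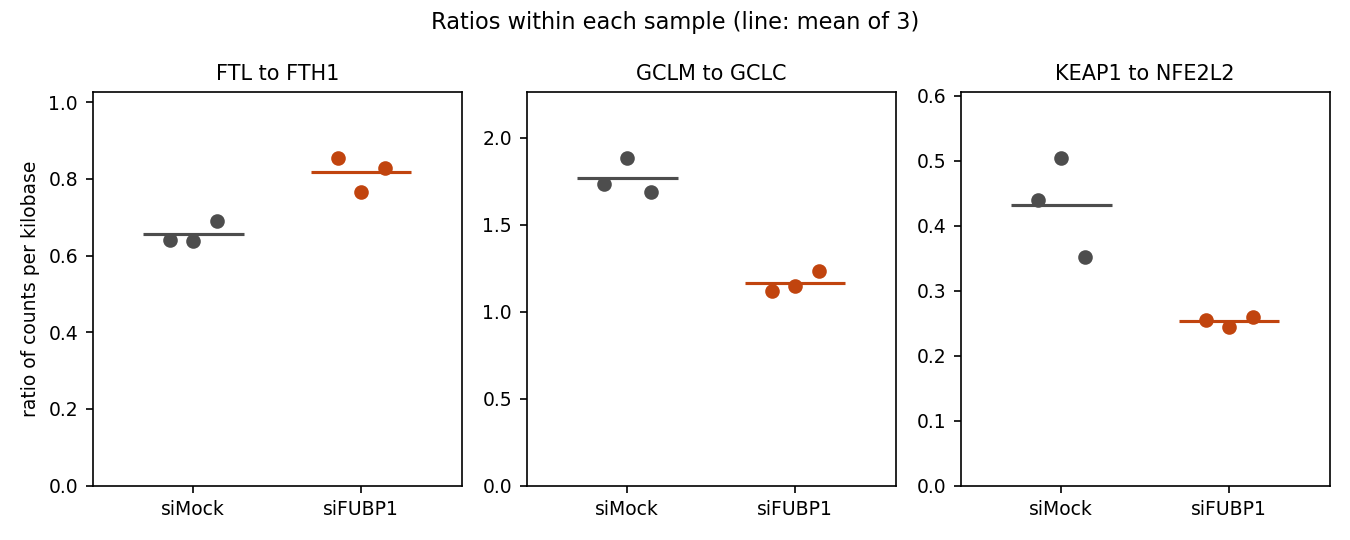
Ratio of counts per kilobase within each sample (linear axes from 0) for FTL to FTH1, GCLM to GCLC and KEAP1 to NFE2L2, with a point for each of the 3 siMock and 3 siFUBP1 samples and a line at the mean. The first ratio is higher and the other two are lower in siFUBP1, with no overlap.

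The partners and repressors of NRF2 were examined as a list of 14 genes, all tested, of which 4 rose and 8 fell, where 30.1% of all tested genes passed in each direction (median log2 fold change -0.42, against 0.00197 over all tested genes). MAFF, a small MAF partner, rose from 26.0 ± 3.17 to 56.4 ± 11.8 CPM (log2 fold change 1.11, edgeR adjusted p = 8.67e-07). The other small MAF genes, looked up after their values were seen, stood higher and fell. MAFK went from 911 ± 83.1 to 652 ± 12.4 CPM (log2 fold change -0.48, edgeR adjusted p = 1.60e-05). MAFG went from 166 ± 8.50 to 130 ± 10.6 CPM (log2 fold change -0.35, edgeR adjusted p = 4.59e-04). BACH1, a repressor that competes with NRF2 on the same elements and is released from DNA by haem, rose from 69.7 ± 6.07 to 149 ± 8.24 CPM (log2 fold change 1.10, edgeR adjusted p = 1.25e-11). GSK3B, a kinase that marks NRF2 for a second degradation route, rose by 0.62 on the log2 scale, whereas BTRC, the ubiquitin ligase receptor of that route, had a log2 fold change of -0.65. Of the ligase that KEAP1 serves, the RING subunit RBX1 fell by 0.70 and the scaffold CUL3 by 0.51 on the log2 scale. CUL3 was singled out after its values were seen. NFE2L3, a relative of NFE2L2, fell from 24.8 ± 0.986 CPM to 40.3% of that level (log2 fold change -1.31, edgeR adjusted p = 5.00e-10).

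**Figure D4:**
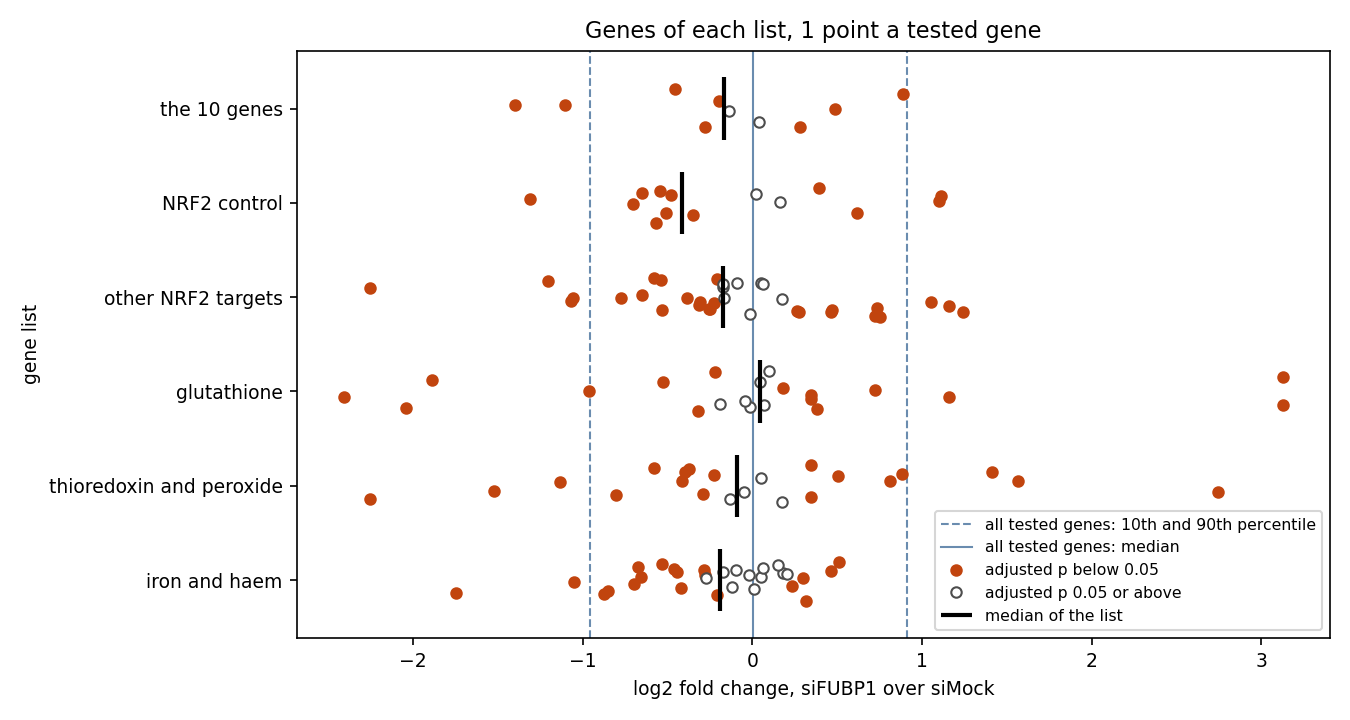
Log2 fold change of siFUBP1 over siMock for each tested gene of the 10 genes and of 5 pathway lists, filled where the edgeR adjusted p was below 0.05, with the list's median as a black bar and the median and the 10th and 90th percentiles of all tested genes as lines. Each list holds genes on both sides of 0.

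Of 36 further genes widely used as NRF2 targets, 34 were tested, of which 10 rose and 16 fell, beside a background of 30.1% each way (median log2 fold change -0.17). The cystine importer SLC7A11 rose from 51.3 ± 4.78 to 115 ± 12.7 CPM (log2 fold change 1.16, edgeR adjusted p = 3.23e-11), the malic enzyme ME1 from 22.2 ± 1.55 to 46.1 ± 6.04 CPM and OSGIN1 from 27.6 ± 2.91 to 46.4 ± 3.79 CPM. OSGIN1 shares 13.9% of its exonic bases with AC009119.2 on the same strand. The peroxiredoxin PRDX1 fell from 533 ± 17.8 to 112 ± 19.8 CPM (log2 fold change -2.25, edgeR adjusted p = 4.43e-15), and MMACHC on the opposite strand covers 24.9% of its exonic bases. PGD, of the pentose phosphate pathway, fell from 351 ± 5.02 to 152 ± 15.1 CPM, and the export pump ABCC3 from 215 ± 8.93 to 102 ± 9.53 CPM. NADPH-producing enzymes of this list thus stood on both sides. The count of genes that fell was 9 with scaling by total counts and 8 without siMock 2.

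Glutathione genes other than GCLC and GCLM numbered 21, of which 8 rose, 7 fell and 6 did not pass, beside a background of 30.1% each way (median log2 fold change 0.0436). CBS, which feeds homocysteine toward cysteine, rose from 2.72 ± 0.952 to 23.7 ± 8.72 CPM (log2 fold change 3.13, edgeR adjusted p = 3.34e-04). CHAC1, which degrades glutathione, rose from 6.12 ± 1.72 to 53.6 ± 7.40 CPM (log2 fold change 3.13, edgeR adjusted p = 4.45e-13). The genes that rose therefore included both supply and breakdown. OPLAH, which returns 5-oxoproline to glutamate, fell from 64.2 ± 10.2 to 17.4 ± 2.27 CPM, the peptidase ANPEP from 74.8 ± 2.99 to 38.4 ± 4.50 CPM, and CHAC2 from 20.8 ± 2.57 to 14.4 ± 0.622 CPM.

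Of 26 genes of the thioredoxin system and of peroxide removal, 22 were tested, of which 8 rose, 10 fell and 4 did not pass, beside a background of 30.1% each way (median log2 fold change -0.0892). The stress gene SESN2 rose from 18.0 ± 1.80 to 121 ± 33.0 CPM (log2 fold change 2.75, edgeR adjusted p = 7.27e-05), and its relative SESN1 fell from 15.5 ± 0.281 to 8.88 ± 0.301 CPM. MSRB3, which repairs oxidised methionine, rose from 22.4 ± 2.56 to 66.3 ± 3.52 CPM. Of the 6 peroxiredoxins, 1 rose, 3 fell and 2 did not pass. The secretory-pathway PRDX4 rose from 77.7 ± 6.08 to 207 ± 20.4 CPM, while the cytosolic PRDX2 fell from 201 ± 13.8 to 135 ± 7.36 CPM, beside PRDX1 above. The other 3 were looked up after their values were seen: PRDX5 fell by 0.42 on the log2 scale, and PRDX3 (-0.13, edgeR adjusted p = 0.146) and PRDX6 (0.05, edgeR adjusted p = 0.588) did not pass.

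Iron and haem genes other than FTL, FTH1 and HMOX1 numbered 37, with 30 tested, of which 5 rose, 14 fell and 11 did not pass (median log2 fold change -0.19). Against the background of 30.1% each way, the share that rose is below it and the share that fell above it. The list was chosen with earlier results of these data known, so these shares are a description only. ACO1, which as iron regulatory protein binds the IRE shown above, fell from 192 ± 3.52 to 57.4 ± 5.11 CPM (log2 fold change -1.74, edgeR adjusted p = 1.47e-15). NCOA4, the receptor that carries ferritin to the lysosome, fell from 535 ± 35.4 to 258 ± 28.7 CPM (log2 fold change -1.05, edgeR adjusted p = 7.74e-11). MELTF, a transferrin relative, fell from 46.9 ± 5.10 to 25.6 ± 1.74 CPM. The metal importer SLC39A14 rose from 239 ± 11.9 to 341 ± 19.2 CPM, ferrochelatase (FECH) from 23.5 ± 2.55 to 32.5 ± 2.89 CPM, and the iron chaperone PCBP2 from 229 ± 15.4 to 286 ± 13.4 CPM. The transferrin receptor TFRC, singled out after its values were seen because its 3′UTR holds 4 matches to the IRE pattern, had a log2 fold change of -0.65 (edgeR adjusted p = 1.20e-05). The iron exporter SLC40A1 had no count in any of the 6 samples, which allows up to 3 counts, or 0.184 CPM, in a sample, for counting error only. With scaling by total counts, 8 iron and haem genes rose and 12 fell, where 5698 of all tested genes rose and 4121 fell.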

How the data were processed

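The authors deposited 1 table of 58735 genes with raw read counts per gene and sample and FPKM values that the authors computed from them. Per the submitters' processing notes the tools were HISAT2 2.0.5, StringTie 1.3.3b, featureCounts 1.5.0-p3 and DESeq2 1.16.1. The strand setting is not given in the sources used here. Identifiers and lengths match GENCODE 29 (GRCh38). The authors' deposited group means, log2 fold changes and p-values were not used.

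Samples were grouped by title. Counts were tested with edgeR 4.0.16 (R 4.3.3): TMM factors, filterByExpr, robust quasi-likelihood F test, and Benjamini-Hochberg adjustment over 16116 genes. Within-sample ratios were compared by exact permutation. DESeq2 1.42.0, limma 3.58.1 on log2(FPKM + 1) and log2(FPKM + 0.1), other scalings and filters and left-out samples served as alternatives. The fit was also run on simulated counts in which few genes changed, as many up as down. Scaling when a large share of genes changes, as here, was not simulated.

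The members and lists were chosen with earlier results of these data known. Of each pathway list, the text names up to 3 genes with the highest and 3 with the lowest log2 fold change among those that passed, averaged at least 100 counts and did not overlap between groups. Genes in 2 lists count in both. SOD2, whose name stands on 2 rows, was left out.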

Additional observations from a re-analysis of the deposited data

How the results depend on the processing

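NFE2L2, GCLC, HMOX1, SRXN1 and FTH1 kept their direction and their call under every alternative run. For the 3 ratios the alternatives could not turn the direction. Ratios of FPKM and the replicate block gave the same difference, and leaving out a sample cannot turn groups that do not overlap. The correction for GC content and length was not run on the ratios. Of the 10 genes, 5 fell, against 3 with scaling by total counts and 3 to 5 when a sample was left out, with 3 without siMock 2, siFUBP1 1 or siFUBP1 3. KEAP1 and NQO1 were the falls lost there, and GCLM lost its rise under the correction for GC content and length. On limma with log2(FPKM + 1), 1 of the 10 genes passed 2-fold (HMOX1), since SRXN1 came to -0.86, and 1050 of all genes did, against 2787. With a mean of at least 50 counts, 1662 of all genes passed 2-fold. TXNRD1 turned to a log2 fold change of -0.0487 (edgeR adjusted p = 0.663) without siMock 1, within a range up to 0.0878 when a sample was left out. Samples with the same replicate number did not all deviate together (correlations of -0.00469, 0.0171 and 0.123). Of the siMock samples, siMock 1 and siMock 2 correlated best with another number, and siMock 3 best with siFUBP1 3. With the replicate block 3 of the 10 genes rose and 5 fell, and 10014 of all genes passed, against 9695. The causes were not tested. With 3 samples a group, no ratio could reach p below 0.1, and the depth behind SRXN1, at 43 to 134 counts, left the widest interval of the 10 genes.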
